A study of Mus musculus with 8 samples.

Results

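Asb10, Rapsn and Ipcef1 are 3 of the 46078 genes counted in BV-2 microglia of the mouse, and they had almost no reads left after exposure to lipopolysaccharide (LPS). They were chosen by their fall in LPS-treated cells against control cells, as the top 3 of a ranking of genes with a lower level in LPS, so that fall is described here and not tested. The 8 libraries of polyadenylated RNA formed 4 groups of 2, namely cells given control solvent (control), 100 ng/mL LPS for 20 h (LPS), LPS with aged garlic extract at 0.5% by volume (AGE+LPS), and LPS with 3 mM FruArg (FruArg+LPS). FruArg is a compound of fructose and arginine found in the extract, and either co-treatment was added 1 h before LPS. Replicate 1 of each group came from lane 3 and replicate 2 from lane 6, so that the replicate number marks a shared lane.

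The products of the 3 genes belong to separate cellular systems. Asb10 encodes an ankyrin repeat protein with a SOCS box, the short domain through which such proteins bind elongins B and C and serve as the substrate-recognition subunit of cullin-5 ubiquitin ligases. Rapsn encodes rapsyn, the scaffold protein that gathers acetylcholine receptors under the nerve terminal at the neuromuscular junction, downstream of agrin, Lrp4, MuSK and Dok7. Ipcef1 encodes a protein with a pleckstrin homology domain that binds cytohesins, the exchange factors that load the small GTPase Arf6 with GTP at the plasma membrane and so act on membrane traffic and cell migration. Microglia are the resident macrophages of the brain and sense LPS through Toll-like receptor 4.

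The comparison of LPS with control asked what the endotoxin did to each transcript, and in all 3 genes it left between 0 and 1 count per library. Asb10 (ENSMUSG00000038204, chromosome 5, 24532697 to 24540978, minus strand, GRCm38) had 53 and 188 counts in control replicates 1 and 2 and 1 and 0 counts in LPS replicates 1 and 2. Rapsn (ENSMUSG00000002104, chromosome 2, 91035620 to 91045729, plus strand) had 53 and 100 counts in the control libraries and 0 and 1 in the LPS libraries. Ipcef1 (ENSMUSG00000064065, chromosome 10, 6885796 to 7052478, minus strand) had 45 and 185 counts in the control libraries and 1 in each LPS library. Every control library was thus high and every LPS library was at or near 0, without overlap, as the choice of these genes required. The LPS libraries held 8720784 and 12069807 counts in total and the control libraries 2707500 and 8995052. In the remaining libraries the totals were 6795464 and 6669072 for AGE+LPS and 4692715 and 5822113 for FruArg+LPS. In these bulk samples, fewer cells that expressed a gene and less of its RNA per cell cannot be told apart.

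Counts were scaled to a common library size with edgeR's TMM factors and are given as TMM CPM. On that scale the control level was 17.1 ± 0.786 for Asb10, 13.0 ± 5.05 for Rapsn and 15.7 ± 2.35 for Ipcef1 (mean ± SD, n = 2). The control replicates of Asb10 differed by no more than counting error, with a ratio of replicate 1 to replicate 2 of 0.937 (95% interval 0.677 to 1.28), and so did those of Ipcef1, with a ratio of 0.808 (0.570 to 1.13). Rapsn was at 16.5 TMM CPM in control replicate 1 and 9.38 in control replicate 2, a ratio of 1.76 (1.24 to 2.48) that exceeded counting error. Intervals and floors here cover counting error only and leave out the spread between replicates. The reads carried no molecular identifiers, so copied reads could not be told from separate molecules. Summed over genes, replicates differed by more than counting error, with a chi-square per degree of freedom of 11.9 in control and 41.3 in LPS. It was 25.6 in AGE+LPS and 24.2 in FruArg+LPS. Per kilobase of exon, the control level was 6.09 TMM CPM for Asb10 and 7.19 for Rapsn, near the median of 5.87 over the 12835 tested genes with a length, and 1.74 for Ipcef1, which has 9003 exonic bases. By this per-length measure 51.1%, 55.6% and 22.1% of those genes were lower in control cells than Asb10, Rapsn and Ipcef1, respectively. The genes were thus of moderate to low abundance before LPS, and none was among the abundant transcripts of the line.

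Pooled over both libraries, LPS cells held 1 count of Asb10 where the control level would have given 328, which is 0.305% of control (95% interval 0.00770 to 1.72%). For Rapsn the pooled count was 1 in place of 208, or 0.481% of control (0.0121 to 2.72%). For Ipcef1 it was 2 in place of 313, or 0.640% of control (0.0770 to 2.34%). The upper bounds therefore placed all 3 transcripts at or below 2.72% of their control level in LPS cells. The ranking that put them first used fitted log2 fold changes, which depend on the prior count at such low counts and are no bounds. It gave −7.90 for Asb10, −7.50 for Rapsn and −6.99 for Ipcef1 among 1060 genes. Those genes were lower in LPS with an edgeR adjusted p below 0.05 and a log2 fold change of −1 or lower. They also had a mean of at least 5 TMM CPM over the control and LPS libraries, without overlap between the groups. The next 3 genes, just outside the choice, were Lfng at −6.52, Gpr183 at −6.43 and Hist1h3g at −6.40. They encode a glycosyltransferase that modifies Notch, an oxysterol receptor and a replication-dependent histone H3, and with near-identical H3 copies in the genome the reads of Hist1h3g are uncertain.

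**Figure D1:**
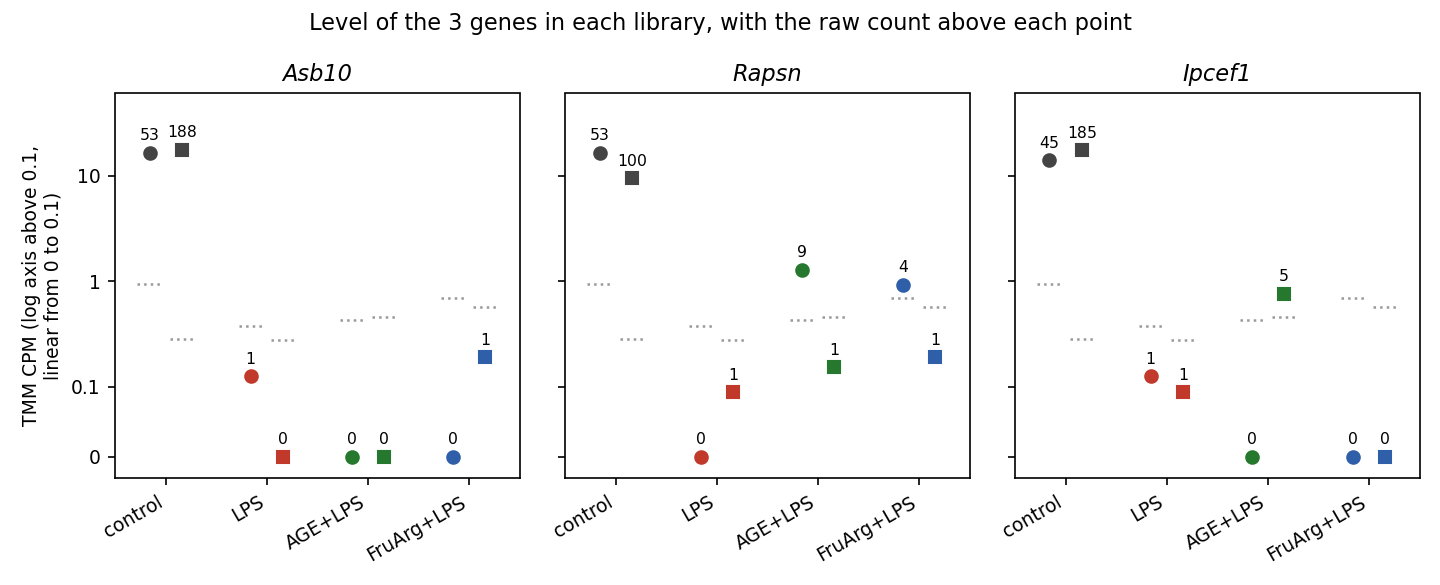
TMM CPM of Asb10, Rapsn and Ipcef1 in each of the 8 libraries, with circles for replicate 1, squares for replicate 2, the raw count printed above each point and a dotted line at the value of 3 counts in that library. The vertical axis is logarithmic above 0.1 and linear below it, and the control points stand between 9.38 and 17.6 TMM CPM while no LPS-exposed library is above 1.29.

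Whether either co-treatment restored the transcripts was the next question, and neither brought any of the 3 genes near its control level. Asb10 had 0 and 0 counts in AGE+LPS replicates 1 and 2 and 0 and 1 in FruArg+LPS. Rapsn had 9 and 1 counts in AGE+LPS and 4 and 1 in FruArg+LPS. Ipcef1 had 0 and 5 counts in AGE+LPS and 0 and 0 in FruArg+LPS. Every co-treated library lay below both control libraries for each gene. After scaling, both co-treated groups were above the LPS libraries for Rapsn, Ipcef1 in FruArg+LPS was below them, and the other groups overlapped them. For Rapsn this rested on library depth, since replicate 2 of LPS, AGE+LPS and FruArg+LPS each had 1 count (0.092, 0.152 and 0.190 TMM CPM). For Ipcef1 it was 0 counts against 1 in each LPS library. These values lie below 3 counts and the LPS libraries took part in choosing the genes, so no difference is read from them. Rapsn was the gene with the most co-treated reads, and its counts were concentrated in replicate 1 of both co-treatments. Co-treated and control cells are compared here by values without a test, because the control libraries took part in choosing the genes.

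For Asb10, the 0 counts in AGE+LPS stood against 236 expected at the control level, which made the transcript at least 78.7-fold lower than in control against a floor of 3 counts over the group. That floor is not a 95% limit, and the 95% counting interval reached up to 1.57% of the control level, or 63.5-fold lower. In FruArg+LPS, 1 count stood against 167, or 0.599% of control (95% interval 0.0151 to 3.37%). The SOCS-box gene thus stayed at or below 1 count per library in all 6 LPS-exposed libraries. For Ipcef1, the 5 counts in AGE+LPS, all in replicate 2, stood against 225, or 2.22% of control (0.714 to 5.25%). In FruArg+LPS, 0 counts against 159 made Ipcef1 at least 53.1-fold lower than in control against the same floor, while the 95% counting interval reached up to 2.33% of control, or 42.9-fold lower.

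Rapsn came closest to its control level, although it remained a small fraction of it. In AGE+LPS, 10 counts stood against 150 at the control level, or 6.67% of control (95% interval 3.14 to 12.6%). In FruArg+LPS, 5 counts stood against 106, or 4.72% of control (1.51 to 11.3%). Taken lane by lane, Rapsn was at 7.78% of control replicate 1 in AGE+LPS replicate 1 and at 1.62% of control replicate 2 in AGE+LPS replicate 2. For FruArg+LPS the same shares were 5.56% and 2.03%. The shares in replicate 1 were higher in both co-treatments, and LPS alone gave 0 and 0.982%. The highest upper bound of any gene in any co-treatment was the 12.6% of Rapsn in AGE+LPS, so that all counting intervals ended far below the control level. These intervals leave out the spread between replicates, which exceeded counting error for Rapsn in control. The control libraries also took part in choosing the genes, so the bounds are a description.

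The comparison of each co-treatment with LPS asked whether the few added reads exceeded the spread between libraries. These tests share the LPS libraries that chose the genes, and a gene picked for low LPS counts has more room to be higher elsewhere. The genes also passed the count filter only through the control libraries in which they were high, so the p values below are read as description and support no difference by themselves. In AGE+LPS against LPS, Rapsn had 10 counts against 1, a ratio of 13.9 (95% interval 1.97 to 602), with a log2 fold change of 3.41 (SE 1.36) and an adjusted p of 0.216 by edgeR's quasi-likelihood test with Benjamini-Hochberg adjustment. Over 13 alternatives the adjusted p of edgeR and DESeq2 ranged from 0.039 to 0.88, and it fell under the threshold in 1 of them, 0.039 when all genes with at least 1 count were tested by edgeR. Without AGE+LPS replicate 1 the log2 fold change of Rapsn was 1.27, with an adjusted p of 0.88 by edgeR, and without LPS replicate 2, when the LPS group has 0 counts and the fitted fold is no bound, the adjusted p was 0.409. Against LPS, the FruArg+LPS libraries had 5 counts of Rapsn where LPS had 1, a ratio of 9.81 (1.10 to 464), with a log2 fold change of 2.96 (SE 1.52) and an edgeR adjusted p of 0.331 (0.151 to 0.917 over 13 alternatives). Without FruArg+LPS replicate 1 its log2 fold change was 1.57, with an edgeR adjusted p of 0.917.

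For Ipcef1, 5 counts in AGE+LPS against 2 in LPS gave a ratio of 3.47 (95% interval 0.568 to 36.4), a log2 fold change of 1.64 (SE 1.29) and an edgeR adjusted p of 0.570 (0.336 to 0.825 over 13 alternatives). The sign rested on AGE+LPS replicate 2, without which Ipcef1 had 0 counts against 2, a fitted log2 fold change of −2.81 that is no bound, and an edgeR adjusted p of 0.634. No fold is given for Asb10 in either co-treatment, or for Ipcef1 in FruArg+LPS against LPS, because both groups held 3 counts or fewer. Their edgeR adjusted p values were 0.638 and 0.817 for Asb10 and 0.563 for Ipcef1. The comparison of the co-treatments used neither LPS nor control libraries as a group, but the genes entered it only because control counts carried them through the filter, and no difference was detected at 0 to 10 counts per group. Rapsn had 5 counts in FruArg+LPS against 10 in AGE+LPS, a ratio of 0.707 (0.190 to 2.27) with an edgeR adjusted p of 0.906 (0.664 to 1 over 13 alternatives), and the fitted sign turned without AGE+LPS replicate 1 or without FruArg+LPS replicate 2, at log2 fold changes of 1.68 and 0.31. Ipcef1 had 0 counts in FruArg+LPS against 5, a ratio whose 95% interval reached up to 1.54, with an edgeR adjusted p of 0.598, and without AGE+LPS replicate 2 both groups were at 0. Asb10 had 1 count against 0, with an edgeR adjusted p of 0.681.

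Read against all 12873 genes tested, a gene was called when its edgeR adjusted p was below 0.05 and its log2 fold change was 1 or more in either direction. Of the 3 genes, 0 were called in AGE+LPS against LPS, where 2.92% of all genes were, and 0 by DESeq2 or with the lane block. There 1 of the 3, Rapsn, was at an unadjusted p under 0.05, beside 2361 of all genes. With FruArg+LPS set against LPS, 0 of the 3 were called, beside 0.0388% of all genes, and 0 by DESeq2 or with the block. At an unadjusted p under 0.05 were 0 of the 3, beside 2249 of all genes. In FruArg+LPS against AGE+LPS, 0 of the 3 and 0% of all genes were called by edgeR, with 1137 genes at an unadjusted p under 0.05, 31 called by DESeq2 and 151 with the block. The background itself was unsteady, since 376 genes were called in AGE+LPS against LPS by edgeR, 570 by DESeq2 and 895 with the block, and between 19 (without AGE+LPS replicate 2) and 508 (without FruArg+LPS replicate 2) when 1 library was left out. In FruArg+LPS against LPS the 5 genes called were Cep57l1, which was lower, and Cd81, Pcx, Cxcl2 and Slc48a1, which were higher, named after their values were seen, while DESeq2 called 331 genes and the block 853. Leaving out 1 library gave between 0 calls, as without either control library, and 422, without FruArg+LPS replicate 2. Against control, 20.3% of genes were called in LPS (10.2% higher and 10.1% lower), 12.4% in AGE+LPS and 17.2% in FruArg+LPS, and nothing is read from the members' own calls there. The 2608 calls of LPS against control fell to 1640 without control replicate 1 and to 1627 without control replicate 2, the 1598 of AGE+LPS to 943 and 680, and the 2210 of FruArg+LPS to 1191 without control replicate 2.

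How unusual such near-silencing was in these cells was described with a class defined by level alone, at least 5 TMM CPM in each control library and at most 3 counts in each LPS library. Of 9732 genes at that control level, 11 met it, or 0.113%, and all 3 members were among them. The other 8 were Hist1h3g, Lfng, Sardh, Ocstamp, Sapcd2, Hist1h2af, Kcne3 and ENSMUSG00000091089, an identifier of the count data that is not in GENCODE M21. Sardh encodes a mitochondrial enzyme of sarcosine breakdown, Ocstamp a membrane protein needed for the fusion of osteoclasts, and Kcne3 an accessory subunit of potassium channels. Hist1h2af, like Hist1h3g, has near-identical histone copies and its counts are uncertain for that reason. Ocstamp and Kcne3 had 0 counts in both LPS libraries. The class is again chosen by control and LPS values, so it is a description. With 2 TMM CPM as the control minimum it held 30 of 11206 genes, and with 0 counts in each LPS library 2 of 9732, without any of the 3 members.

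In AGE+LPS the 11 genes stood at a median of 6.67% of control (0 to 18.1%), and 10 of them were above their pooled LPS level, the exception being Asb10. Because the class was chosen by low LPS counts, a higher level elsewhere was largely fixed by that choice, and the comparisons with LPS below share it. In FruArg+LPS the median was 3.32% (0 to 20.6%), and 8 of the 11 were above their pooled LPS level. Without the members, the other 8 genes had medians of 7.38% and 3.34% of control, respectively. Rapsn was thus at the middle of the class in AGE+LPS and above it in FruArg+LPS, whereas Asb10 and Ipcef1 were below the class median in both. The highest shares were those of ENSMUSG00000091089 in AGE+LPS, with 14 and 5 counts, and of Sardh in FruArg+LPS, with 10 and 4 counts. Against LPS, 0 of the 11 were called by edgeR or DESeq2 in either co-treatment, beside 2.92% and 0.0388% of all genes called by edgeR. At an unadjusted p under 0.05 were 6 of the 11 in AGE+LPS and 2 in FruArg+LPS, beside 2361 and 2249 of all 12873 genes. With the lane as a block, edgeR called Lfng in AGE+LPS (log2 fold change 2.60, adjusted p 0.0291) and Ocstamp in FruArg+LPS (adjusted p 0.0239), for which no fold is given because the LPS libraries had 0 counts. Both calls are against the LPS counts that chose the class and support no difference.

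**Figure D2:**
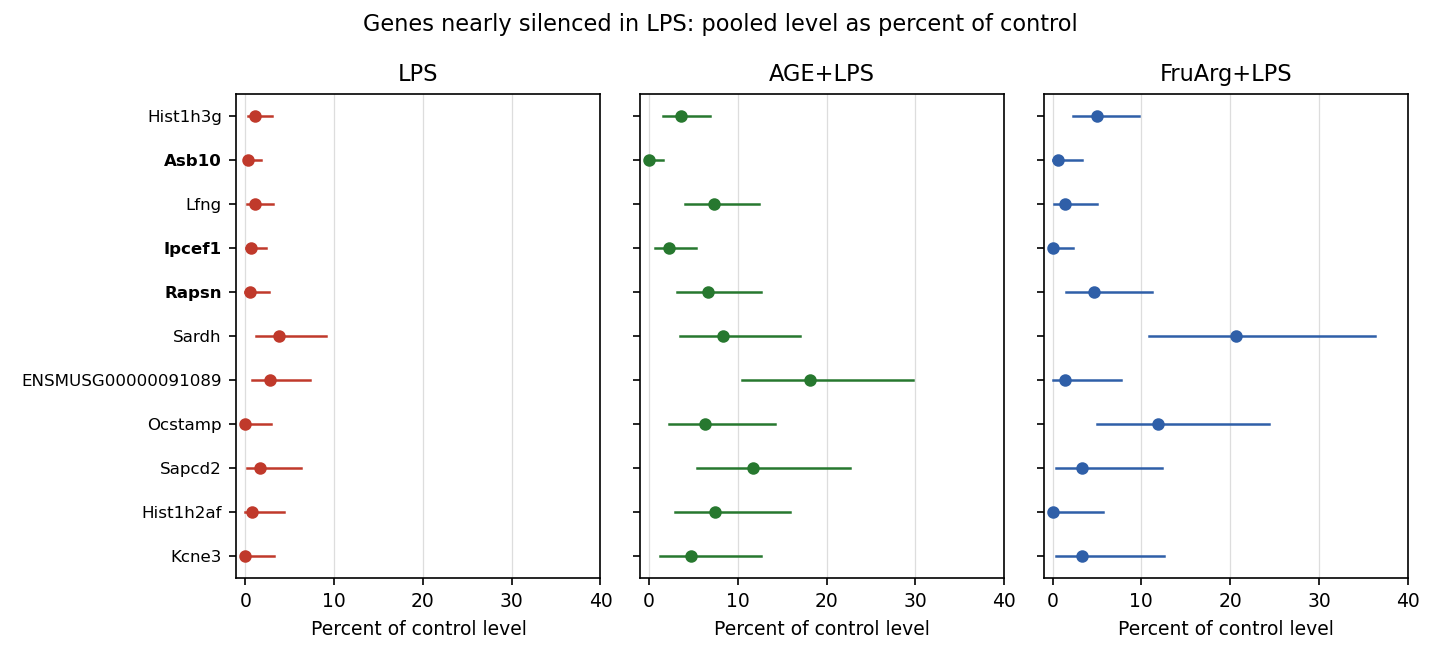
Pooled level of the 11 nearly silenced genes in LPS, AGE+LPS and FruArg+LPS as a percentage of their pooled control level, with lines for the 95% counting interval and the 3 members in bold. Points in AGE+LPS reach 18.1% and in FruArg+LPS 20.6%, and the highest point of a member is the 6.67% of Rapsn in AGE+LPS.

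Genes near the 3 members on their chromosomes were measured for the same comparison. Within 100 kb of their ends, 17 protein-coding genes are annotated in GENCODE M21, of which 12 were tested and 1 was called in LPS against control, beside 20.3% of all genes called and 10.1% called lower. Around Asb10, the 6 tested genes Slc4a2, Fastk, Tmub1, Agap3, Abcf2 and Chpf2 had log2 fold changes between −0.71 and 0.61. Around Rapsn, Celf1, Psmc3, Slc39a13, Spi1 and Madd lay between −0.36 and 0.61, and Spi1, which encodes the macrophage transcription factor PU.1, had a mean of 97.7 TMM CPM in control and 150.1 in LPS. None of these 11 was called by edgeR, DESeq2 or with the block. Slc4a2, Chpf2 and Spi1 were at an unadjusted p under 0.05, as were 4927 of all 12873 genes. Cnksr3, a scaffold protein gene that lies 66584 bases from Ipcef1 and is transcribed from the same strand, was the 1 neighbour that fell. It had 103 and 350 counts in the control libraries and 121 and 134 in the LPS libraries, which were the lower pair after scaling, with a log2 fold change of −1.24 (SE 0.291) and an edgeR adjusted p of 0.0118. The call of Cnksr3 was lost without control replicate 1, control replicate 2 or LPS replicate 2. In either co-treatment against LPS, 0 of the 12 neighbours were called by edgeR, DESeq2 or the block, while edgeR called 2.92% and 0.0388% of all genes. An unadjusted p under 0.05 was found for 1 neighbour in AGE+LPS and 5 in FruArg+LPS, beside 2361 and 2249 of all 12873 genes.

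Genes that overlap the members could add or take reads, because no source used here states whether counting used the strand. Oprm1, the µ-opioid receptor gene, overlaps Ipcef1 over 152403 bases on the opposite strand and shares 96 exonic bases with it, and it had 0 counts in all 8 libraries. Gm13778 overlaps Rapsn over 1638 bases on the opposite strand, with 4 exonic bases in common, and the pseudogene Gm15536 overlaps Ipcef1 over 114 bases with 0 in common. Each of them had 1 count, in control replicate 1.

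**Figure D3:**
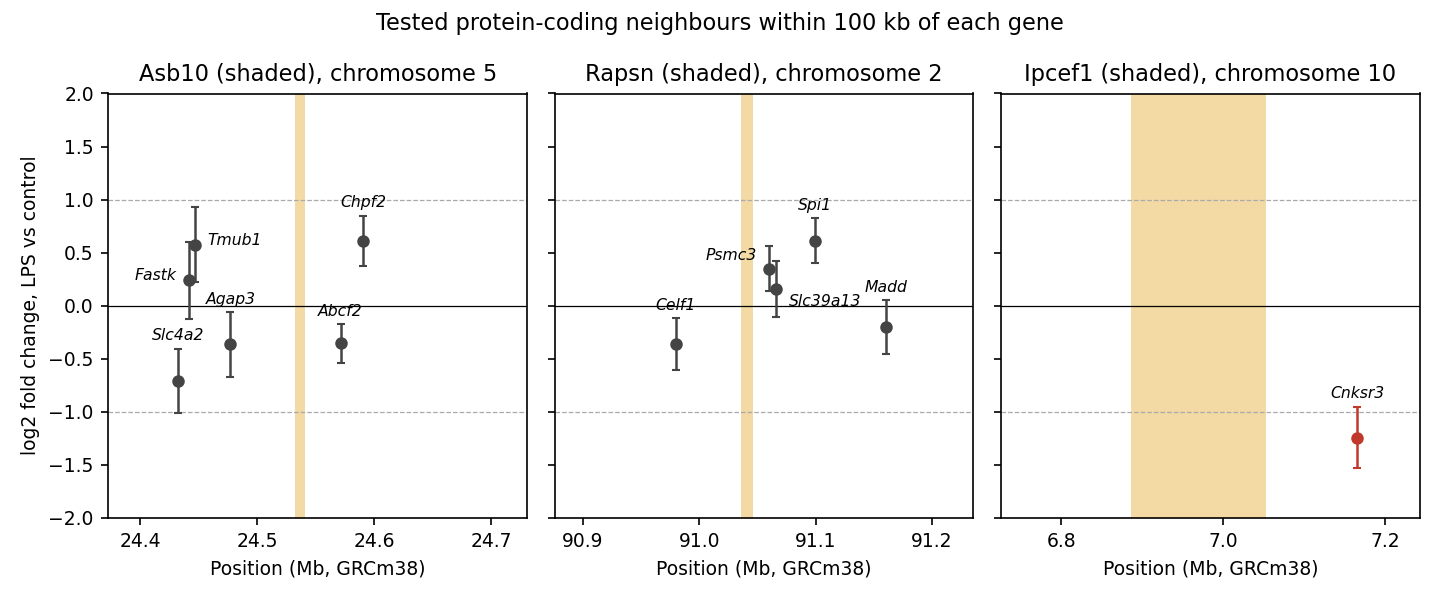
Log2 fold change of LPS against control (points, with bars of 1 SE from edgeR's quasi-likelihood fit) for the 12 tested protein-coding genes within 100 kb of Asb10, Rapsn and Ipcef1, by chromosome position. Dashed lines mark −1 and 1, the shaded strip is the named gene, and Cnksr3, in red at −1.24, is the only called neighbour.

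Since the genes fell together, the bases before their annotated starts are given for Asb10 and Ipcef1, from the RefSeq table used here (GRCm38.p6), which holds no row for Rapsn. The window of Asb10 is chr5:24540979-24541228 on the minus strand and that of Ipcef1 is chr10:7023186-7023435 on the minus strand, upstream of 1 of its 3 RefSeq starts and inside the gene as GENCODE draws it. It was taken because the windows of the other starts, chr10:6980282-6980531 and chr10:6980466-6980715, hold 225 and 44 exonic bases. Both windows shown hold 250 bases, none of them exonic in GENCODE M21. Capitals mark the letters of the motif GGAAGT, read on the opposite strand.
Asb10: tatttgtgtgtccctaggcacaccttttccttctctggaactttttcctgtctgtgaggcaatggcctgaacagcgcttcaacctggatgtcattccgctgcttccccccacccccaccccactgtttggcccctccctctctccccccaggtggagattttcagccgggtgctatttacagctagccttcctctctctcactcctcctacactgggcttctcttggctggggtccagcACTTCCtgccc
Ipcef1: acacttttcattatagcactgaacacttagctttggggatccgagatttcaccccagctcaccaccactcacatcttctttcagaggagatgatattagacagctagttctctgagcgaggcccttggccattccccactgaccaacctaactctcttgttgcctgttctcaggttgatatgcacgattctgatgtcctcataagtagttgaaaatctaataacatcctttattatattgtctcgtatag
Motifs were searched on both strands as GGAAGT (the core of ETS factors such as PU.1), TGANTCA (AP-1), CANNTG (E-box), and by longer patterns for NF-κB and for interferon regulatory factors. The Asb10 window held 1 GGAAGT, which 19.7% of all 32851 RefSeq windows of this length hold, and 1 CANNTG, which 66.2% hold. Neither window held TGANTCA or the patterns of NF-κB or interferon regulatory factors, found in 6.75%, 1.41% and 2.98% of all windows, and the Ipcef1 window shown held none of the motifs searched. A match is a run of letters and not a bound site, and the lack of one describes this window alone. GC content was 56.8% in the Asb10 window and 42.8% in the Ipcef1 window.

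Across the 8 libraries the levels of the 3 genes followed each other, with a Pearson r of log2(TMM CPM + 1) of 0.985 between Asb10 and Ipcef1, 0.949 between Asb10 and Rapsn and 0.925 between Rapsn and Ipcef1. These correlations describe 8 libraries in which the control pair stands apart, which is the pattern the genes were chosen by. The 5 genes most like Asb10 by r were Epb41l2 (0.995), Hist1h2bk, Hist1h2an, F13a1 and Pcyox1l (0.989). Epb41l2, a gene of the membrane skeleton, had a mean of 75.4 TMM CPM in control, 38.3 in LPS, 36.6 in AGE+LPS and 39.7 in FruArg+LPS, so that it shared the shape and not the depth of the fall. F13a1, which encodes the A subunit of coagulation factor XIII, had 6 and 23 counts in control and between 0 and 2 in every LPS-exposed library. The 5 most like Rapsn were Ctdspl (0.993), Hist1h3g, Slc17a5, Pik3ip1 and Bpnt1 (0.985). The 5 most like Ipcef1 were P2ry1 (0.997), Rasgrp3, Rpa1, Xpr1 and Rfc4 (0.991). P2ry1 encodes an ADP receptor with means of 62.3 TMM CPM in control and 8.41 in LPS, and Rasgrp3 an exchange factor for Ras and Rap with means of 261.8 and 7.79. The order was not stable, because with Spearman's rho 0, 1 and 0 of these genes were shared for Asb10, Rapsn and Ipcef1, and with a pseudocount of 0.1 in place of 1 it was 2, 2 and 1. Reads of Hist1h2bk and Hist1h2an are uncertain between near-identical histone genes.

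Other genes of the Asb family were described beside Asb10. Of 17 such genes, 8 were tested, and in LPS against control 2 rose and 0 fell by edgeR, with the same numbers by DESeq2. Over all genes, edgeR called 10.2% higher and 10.1% lower. An unadjusted p under 0.05 was found for 6 of the 8, beside 4927 of all 12873 genes. The median log2 fold change of the 8 was 0.66, beside −0.02 over all genes. Asb13 had 12 and 31 counts in control and 103 and 190 in LPS, with a log2 fold change of 2.23 (SE 0.516) and an edgeR adjusted p of 0.0112. Asb6 had 65 and 272 counts in control and 463 and 476 in LPS, with a log2 fold change of 1.14 (SE 0.256) and an edgeR adjusted p of 0.00989. Their libraries did not overlap between the groups after scaling. The call of Asb13 was lost without control replicate 1, control replicate 2 or LPS replicate 2, and that of Asb6 without control replicate 1 or LPS replicate 1. With the block, Asb4 was also called lower in LPS. Against control, where edgeR called 12.4% of all genes in AGE+LPS and 17.2% in FruArg+LPS, it called Asb1 higher and Asb4 lower in both co-treatments. It also called Asb11 lower in AGE+LPS and Asb6 higher in FruArg+LPS. DESeq2 made all of these calls but those of Asb4, which were lost without 6 (AGE+LPS) and 3 (FruArg+LPS) of the 8 libraries in turn. The calls of Asb1 were lost without 2 and 3. With library size scaling the call of Asb1 in FruArg+LPS was also lost, at a log2 fold change of 0.86. Asb11 had the highest level of the family per kilobase of exon, at 22.7 TMM CPM over all libraries, and it fell in AGE+LPS against LPS. It had 895 and 1230 counts in LPS and 201 and 143 in AGE+LPS, with a log2 fold change of −2.16 (SE 0.218) and an edgeR adjusted p of 0.00667, a call kept with each of the 8 libraries left out. DESeq2 and the block also called Asb13 there, where edgeR called 2.92% of all genes. Between FruArg+LPS and LPS, 0 of the 8 were called by edgeR, beside 0.0388% of all genes. DESeq2 called Asb11 in that comparison, and the block called Asb11 and Asb13. At an unadjusted p under 0.05 were 5 of the 8, beside 2249 of all 12873 genes.

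Other subunits of the ligase in which Asb10 would serve, and proteins that act with it, had transcripts detected throughout. All 7 genes of this list, called the cullin-5 core here (Cul5, Rnf7, Elob, Eloc, Arih2, Ube2f and Nedd8), were tested. By edgeR, 0 were called in LPS against control, beside 20.3% of all genes, and 1, Arih2, was called by DESeq2. An unadjusted p under 0.05 was found for 3 of the 7, beside 4927 of all 12873 genes. The median log2 fold change of the 7 was 0.17, beside −0.02 over all genes. Cul5, the scaffold, had a mean of 80.0 TMM CPM in control and 88.4 in LPS. In AGE+LPS and FruArg+LPS against LPS 0 were called by edgeR, DESeq2 or the block, beside 2.92% and 0.0388% of all genes by edgeR. In each, 1 of the 7 was at an unadjusted p under 0.05, beside 2361 and 2249 of all 12873 genes. Among the 8 SOCS genes, which carry the same box and act as feedback inhibitors of cytokine signalling, 3 rose in LPS against control by edgeR, Socs3, Socs1 and Cish, and 0 fell, beside 10.2% of all genes called higher and 10.1% lower, and their median log2 fold change was 0.59. Socs3 had 14 and 52 counts in control and 371 and 323 in LPS, with a log2 fold change of 3.01 (SE 0.341) and an edgeR adjusted p of 2.70e-04. Socs1 and Cish had 0 and 3 counts each in control, and Cish lost its call by DESeq2 and without any 1 of the control, LPS or AGE+LPS libraries, as did Socs1 without either control library. In AGE+LPS against LPS 0 SOCS genes were called by edgeR, DESeq2 or the block, beside 2.92% of all genes called by edgeR. Of the 8, 3 were at an unadjusted p under 0.05 there, beside 2361 of all 12873 genes. For FruArg+LPS against LPS 0 were called by edgeR, beside 0.0388% of all genes. There 1, Socs3, was at an unadjusted p under 0.05, beside 2249 of all genes, and it was called by DESeq2 and the block.

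Genes of acetylcholine receptor clustering were described beside Rapsn. Of 18 genes of that pathway, 6 were tested, and in LPS against control 2 rose and 0 fell by edgeR, by DESeq2 and with the block, beside 10.2% of all genes called higher and 10.1% lower, and their median log2 fold change was 0.77. Agrn, which encodes the nerve-derived signal agrin, had 5 and 21 counts in control, 201 and 166 in LPS, 201 and 76 in AGE+LPS and 148 and 184 in FruArg+LPS. Its log2 fold change in LPS against control was 3.44 (SE 0.507), with an edgeR adjusted p of 0.00116. Dok7, an adaptor of the kinase MuSK, had 18 and 22 counts in control, 164 and 209 in LPS, 468 and 306 in AGE+LPS and 215 and 248 in FruArg+LPS. Both genes were higher in every LPS-exposed library than in either control library, and Dok7 was higher still in both co-treatments than in LPS. Its log2 fold change was 2.58 (SE 0.408) in LPS against control, with an edgeR adjusted p of 0.00162. Dok7 also rose in AGE+LPS against LPS, with a log2 fold change of 1.51 (SE 0.337) and an edgeR adjusted p of 0.0446, a call lost without either library of LPS or of AGE+LPS. In FruArg+LPS against LPS 0 of the 6 were called by edgeR, beside 0.0388% of all genes there and 2.92% in AGE+LPS against LPS. Lrp4 and Dok7 were at an unadjusted p under 0.05, beside 2249 of all 12873 genes, and DESeq2 and the block called Dok7. Of the receptor subunits, Chrnd had 0 counts in all 8 libraries, Chrna1 had 1 count in total, Chrne between 0 and 1 count per library, Chrng between 0 and 3, and Chrnb1 between 0 and 6. Musk, Nrg1 and Erbb2 also had 0 counts in all 8 libraries. The Rapsn transcript of control cells was thus measured without that of MuSK, the kinase through which agrin acts at the junction.

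Genes that act with the partners of Ipcef1 were also described. Of 28 genes of cytohesins, Arf6, their exchange factors, their GTPase-activating proteins and partners, 24 were tested. In LPS against control 0 rose and 5 fell by edgeR, DESeq2 and the block, beside 20.3% of all genes called in either direction and 10.1% lower. An unadjusted p under 0.05 was found for 10 of the 24, beside 4927 of all 12873 genes. The median log2 fold change of the 24 was 0.05, beside −0.02 over all genes. The 5 that fell were Psd3 (−2.87), Dock1 (−2.87), Iqsec3 (−2.34), Cytip (−1.62) and Cnksr3 (−1.24). Psd3 and Iqsec3 encode exchange factors for Arf6, and Cytip encodes a protein that binds cytohesin-1. Cytip had 96 and 278 counts in control, 72 and 99 in LPS, 71 and 82 in AGE+LPS and 16 and 18 in FruArg+LPS, with an edgeR adjusted p of 0.00175 in LPS against control. Every LPS-exposed library was below both control libraries in TMM CPM, and the FruArg+LPS libraries were the lowest. The calls of Psd3 and Cnksr3 were lost without control replicate 1, control replicate 2 or LPS replicate 2, and the other 3 held with each library left out. Dock1, an exchange factor for Rac, had 200 and 475 counts in control, 58 and 79 in LPS and 188 and 159 in AGE+LPS. It rose in AGE+LPS against LPS, with a log2 fold change of 1.81 (SE 0.247) and an edgeR adjusted p of 0.0104, a call lost without LPS replicate 2 or either AGE+LPS library. In FruArg+LPS against LPS 0 of the 24 were called by edgeR, beside 0.0388% of all genes there and 2.92% in AGE+LPS against LPS. Of the 24, 4 were at an unadjusted p under 0.05, beside 2249 of all 12873 genes. DESeq2 and the block each called Cytip and Dock1. Arf6 had a mean of 366.6 TMM CPM in control and 466.3 in LPS, and was not called.

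Scaling bore on the direction of such lists. With library size alone in place of TMM, the median over all genes moved to −0.40 in LPS against control, the calls split into 869 higher and 2322 lower in place of 1310 and 1298, and the list medians became 0.27 for the Asb family, −0.22 for the cullin-5 core, 0.20 for the SOCS genes, 0.39 for receptor clustering and −0.34 for the cytohesin genes. Asb6 and Cish were then not called, and Asb4, Rnf7, Socs6 and Cyth4 were called lower. The response of the cells to LPS was present in every LPS-exposed group. In each, 6 of 6 response genes (Tnf, Il6, Il1b, Nos2, Cd14 and Ptgs2) rose against control by edgeR. Of all 12873 genes, 1310 were called higher in LPS, 854 in AGE+LPS and 1156 in FruArg+LPS. In either direction 20.3%, 12.4% and 17.2% were called. The median log2 fold change of the 6 was 7.52 in LPS, 6.98 in AGE+LPS and 7.30 in FruArg+LPS. Nos2 had 6066 and 8791 counts in LPS and 935 and 812 in AGE+LPS, and its fall there (log2 fold change −2.61, SE 0.378, edgeR adjusted p 0.0123) was lost without either AGE+LPS library. Il1b rose in AGE+LPS against LPS, with a log2 fold change of 1.54 and an edgeR adjusted p of 0.0218. That call was lost without either library of LPS or of AGE+LPS, and the paper lists Il1b among the genes that AGE repressed. For FruArg+LPS against LPS 0 of the 6 were called by edgeR, beside 0.0388% of all genes there and 2.92% in AGE+LPS against LPS. Of the 6, 4 were at an unadjusted p under 0.05, beside 2249 of all genes. DESeq2 and the block each called Il1b and Nos2. Il1b and Nos2, the response genes called in AGE+LPS against LPS, thus went in opposite directions, and both calls depended on single libraries. With both libraries of a group pooled, no upper bound of Asb10, Rapsn or Ipcef1 exceeded 12.6% of control, a limit that depended on single AGE+LPS libraries.

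Cell-type markers were measured to check what the libraries held. All 12 microglial and macrophage markers were detected, with Ptprc the most abundant at a mean of 675 TMM CPM, and their sum lay between 2405 and 3155 TMM CPM in every library. Of the markers of resting microglia, Cx3cr1 (3.73 TMM CPM), P2ry12 (7.76) and Tmem119 (0.344) were low in control cells of this line, and Cx3cr1 and P2ry12 were among the 4 of 11 tested markers that fell in LPS, with Itgam and Trem2, beside 10.1% of all genes called lower. The call of Cx3cr1 was lost without control replicate 1, control replicate 2 or LPS replicate 2, and that of P2ry12 without control replicate 2 or either LPS library. Rapsn is best known from muscle, and the muscle markers Myod1 and Myog had 0 counts in all libraries, while the most abundant of the 9, Mylpf, had a mean of 4.17 TMM CPM. The sum of the muscle markers was 4.37 and 6.10 TMM CPM in control, 8.39 and 5.80 in LPS, 2.86 and 2.58 in AGE+LPS and 9.19 and 6.66 in FruArg+LPS. Neuronal markers summed to at most 2.18 TMM CPM, with Rbfox3, Snap25, Syt1 and Stmn2 at 0 and Tubb3 the most abundant. Astrocyte markers summed to at most 3.04, with Aqp4 and Aldh1l1 at 0 and Slc1a2 the most abundant.

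Of the 6 markers of fibroblasts and endothelium, Kdr was lower than control in every LPS-exposed group, as the 3 members were, and the sum followed it. That sum was 78.0 and 77.8 TMM CPM in control, 10.4 and 9.03 in LPS, 17.2 and 19.0 in AGE+LPS and 6.20 and 5.33 in FruArg+LPS. Kdr, the gene of a VEGF receptor and the most abundant at a mean of 27.2 TMM CPM, made up nearly all of it, with 248 and 822 counts in control and 74 and 79 in LPS. The other 5 markers had means of at most 1.13 TMM CPM in any group, and Col1a1, Col1a2 and Dcn had at most 1 count in any library, all of it in LPS. Pecam1 had 2 and 3 counts in control, 7 and 15 in LPS, 1 and 2 in AGE+LPS and 0 and 2 in FruArg+LPS, so that its mean TMM CPM was above control in LPS alone and below it in both co-treatments. Kdr rose in AGE+LPS against LPS (log2 fold change 1.10, edgeR adjusted p 0.0401), a call lost without any 1 of the control, LPS or AGE+LPS libraries. The part of Kdr in the fall of the members was not tested.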

How the data were processed

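The counts per Ensembl gene that the authors deposited for 8 libraries were analysed. Their methods describe trimmed reads, mapping to mouse GRCm38 with TopHat2 and counting with featureCounts, without tool versions or strand setting. Gene models came from GENCODE M21 (45229 of 46078 genes matched). edgeR 4.0.16 (TMM, filterByExpr, quasi-likelihood, Benjamini-Hochberg) fitted all 8 libraries at once and tested 12873 genes, because filters on 2 groups alone removed the members from the co-treatment comparisons. DESeq2 1.42.0, scaling, filters, a block and left-out libraries were alternatives. Ratio intervals are exact conditional binomial. The members and gene lists were chosen with earlier results of these data known. Genes named are the members, the next 3 of the ranking, the 5 most similar to each, neighbours within 100 kb and nearly silenced genes. The others are the 5 called in FruArg+LPS against LPS and genes of the lists, among them called, abundant or undetected ones. Labels put equal replicate numbers in 1 lane, and replicate differences correlated between groups (r 0.244 to 0.628 over 6 group pairs). The series names 2 biological replicates per group, and p-values measure the spread between these libraries. The fits were tested on simulated data, in which genes with a mean of at least 5 TMM CPM changed 4-fold without a lane effect. Counts of the members in LPS-exposed cells were far lower, so the simulation does not bear on them.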

Additional observations from a re-analysis of the deposited data

How the results depend on the processing

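Of the 3 members, only Rapsn passed under any alternative in the comparisons among LPS-exposed groups. That was in AGE+LPS against LPS, when all genes with at least 1 count were tested (edgeR adjusted p 0.039, log2 fold change 3.41). This pass supports no difference by itself, because the LPS libraries took part in choosing the gene. With 1 library left out, the fitted log2 fold change of Rapsn in FruArg+LPS against AGE+LPS ran from −1.86 to 1.68, and that of Ipcef1 in AGE+LPS against LPS from −2.81 to 2.64, so both directions depended on single libraries. In fits of only the groups compared, the filter removed the members from the comparisons among LPS-exposed groups, which could not be fitted for them, and kept them against control. Called genes in AGE+LPS against LPS numbered 785 with at least 1 count, 570 by DESeq2, 98 from only the groups compared and 895 with the replicate block, beside 376. For FruArg+LPS against LPS they numbered 732, 331, 0 and 853, beside 5. For FruArg+LPS against AGE+LPS they numbered 90 with at least 1 count, 31 by DESeq2 and 151 with the replicate block, beside 0. With 1 library left out, the calls ran from 1627 to 2868 in LPS against control, 680 to 1784 in AGE+LPS against control, 1191 to 2482 in FruArg+LPS against control, 19 to 508 in AGE+LPS against LPS and 0 to 422 in FruArg+LPS against LPS. The 11 nearly silenced genes became 30 with at least 2 TMM CPM in each control library and 2 with 0 counts in each LPS library. Library size scaling moved the all-gene median to −0.24 in AGE+LPS and −0.40 in FruArg+LPS against control, to 0.15 in AGE+LPS against LPS and to −0.16 between the co-treatments, and the calls in AGE+LPS against LPS to 291 higher and 150 lower from 167 and 209. Among cell-type markers the replicate block added Aif1 and Mylpf in AGE+LPS and Csf1r in FruArg+LPS against LPS. Beside these and the changes given with the results, it changed no call of the members, neighbours, nearly silenced genes, lists or markers in LPS against control or in a co-treatment against LPS. With 2 libraries a group and at most 10 counts of a member in any co-treatment, small recoveries cannot be measured.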
